A study of Populus tremula with 16 samples.

Results

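The step from late August into the first days of September was followed in leaves of Populus tremula (European aspen), by RNA sequencing of 4 libraries out of 16 in the series. They were chosen by the collection date in the labels, with 19 and 31 August 2011 (n = 2) set against 2 and 5 September 2011 (n = 2). Earlier results of these data were known at that choice, among them the order of 2 and 5 September and the ID Potri.001G348900. Each date has 1 library of total RNA from leaf. The labels give no treatment, genotype or tree age, and they do not say whether 1 tree or several were sampled or whether leaves were pooled, so each date counted as a replicate, and the p-values speak of the scatter between single dates and of nothing wider. Neighbouring dates served as references, namely 27 July and 5 August (n = 2) before the step and 9, 11, 13 and 15 September (n = 4) after it.

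Autumn senescence is the ordered dismantling of a leaf before it is shed. In aspen the shortening day is known to set its onset, chloroplasts are broken down, and nitrogen and other nutrients are moved from the leaf into the stem for the winter. Which genes stand behind the values here cannot be given, since the files list Potri gene IDs without names or functions. For the same reason the leaf label was not checked against leaf marker genes.

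The 4 libraries held 6008349 and 5148979 counts on 19 and 31 August and 4609652 and 5954322 counts on 2 and 5 September. The reference libraries held 719419 to 6729131 counts, with the 2 lowest totals, 719419 and 836643, on 11 and 15 September. The 10 most abundant IDs took 83.9% of the counts on 19 August, 84.1% on 31 August, 77.3% on 2 September and 81.5% on 5 September. The 95% Wilson interval, which covers counting error only, was 77.2 to 77.3% on 2 September and 81.5 to 81.6% on 5 September. Both September libraries were below both August libraries in this share, and 2 September was the lower of them. On 27 July and 5 August the share was 83.7% and 83.4%, and on 9 to 15 September it ran from 74.9% to 77.1%. With every library thinned to 164929 counts outside these 10 IDs, the number of IDs that held 50% of the remaining counts was 1194 on 19 August, 1194 on 31 August, 1514 on 2 September and 1452 on 5 September. Counts were thus spread over more IDs on both September dates. The number of IDs with any count at that depth was 17808, 17361, 17332 and 17763 on the 4 dates, where the pairs of dates overlapped. A comparison of 2 dates with 2 allows no exact permutation test that could pass 0.05, so none was made on these measures. In whole leaves, fewer cells of a type and less RNA per cell cannot be told apart.

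Between the August pair and the September pair, few IDs were called against the scatter of single dates. Of 15989 tested IDs, 2 (0.0125%) were called at an adjusted p of 0.05 by edgeR's quasi-likelihood test, both lower in September and none higher. At an unadjusted p of 0.05 the same test had 1415 IDs (8.85%), of which 709 were higher (4.43%) and 706 lower (4.42%). By other tools, DESeq2 called 11 higher and 10 lower, and limma-voom called 0 higher and 2 lower. The call count rested on single dates. It was 0 without 2 September and 65 without 5 September, 1 without 19 August (0.00569%) and 7 without 31 August (0.0397%). It was also 0 with the 4 libraries fitted alone, and 198 when 27 July and 5 August were added to the baseline.

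The first of the called IDs, Potri.001G348900, had a level of 380 CPM (the count scaled by library size and TMM, the trimmed mean of M values) on 19 August and 113 CPM on 31 August. On 2 September its level was 2.99 CPM, and on 5 September 9.82 CPM. August held 1737 and 445 counts of it, and September 16 and 55. Both September libraries lay far below both August ones, with 2 September the lowest of the 4. The mean was 247 ± 189 CPM in August (SD, n = 2) and 6.41 ± 4.83 CPM in September (SD, n = 2). The log2 fold change was -5.26 (SE 0.65, edgeR adjusted p = 0.0128). Summed counts gave an August to September ratio of 39.6 (95% exact interval for counting error, 31.2 to 50.8). On 27 July and 5 August it was at 551 and 333 CPM, and on 9 to 15 September it was between 0 and 1.10 CPM. The call held in 15 of 18 alternatives and ended without 2 September (log2 fold change -4.63, adjusted p = 0.171), without 11 and 15 September (adjusted p = 0.146) and with the 4 libraries alone (adjusted p = 0.411). Over the alternatives the adjusted p ran from 5.09e-38 to 0.411, the lowest with no filter on low counts.

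The second called ID, Potri.010G196800, was named after its values were seen, because its 28 counts on 31 August were under the limit of 50 set for naming in each library of the higher pair. Its levels in August were 14.9 CPM on day 19 and 7.12 CPM on day 31, and in September 0.187 CPM on day 2 and 0.536 CPM on day 5. These are 68, 28, 1 and 3 counts. Summed over the dates, August exceeded September 30.9-fold, within an exact 95% counting interval from 11.7 to 116. The log2 fold change was -4.81 (SE 0.63, edgeR adjusted p = 0.0136). September values of 1 and 3 counts are at or under the floor of 3 counts, so the order of 2 and 5 September was not detectable for this ID. The ID numbered directly before it had nearly the same course, with 19.3, 6.35, 0.374 and 0.714 CPM on the 4 dates and a log2 fold change of -4.48 that was not called (edgeR adjusted p = 0.0617). The handling of reads that match both neighbours is unknown here, so both levels are uncertain. The call of Potri.010G196800 held in 12 of 17 alternatives that tested it, and ended with limma-voom (adjusted p = 0.311), with the 4 libraries alone (adjusted p = 0.411) and without 19 August (adjusted p = 0.160), 2 September (adjusted p = 0.427) or 11 and 15 September (adjusted p = 0.146). The range over its alternatives was 2.36e-12 to 0.427.

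Among IDs that stood higher in September, the 2 with the smallest p and at least 50 counts in each September library did not pass the test. Potri.014G103000 was at 3.06 CPM on 19 August and 1.27 CPM on 31 August, and at 13.1 CPM on 2 September and 12.3 CPM on 5 September. Its September libraries were close to each other and above both August libraries, with a log2 fold change of 2.51 (SE 0.41, edgeR adjusted p = 0.0617). Potri.005G048700 was at 0.656, 2.80, 57.1 and 11.6 CPM on the 4 dates. Here the September libraries were above August too but far apart, and the log2 fold change was 4.33 (SE 0.72, edgeR adjusted p = 0.0617). The ID numbered 3 places before it stood at 0.219 and 0 CPM on the August dates, 12.2 CPM on 2 September and 3.39 CPM on 5 September. That neighbour too was higher on 2 than on 5 September.

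Both of these IDs were called higher in libraries outside the 4 dates. In a separate fit of 9 to 15 September against 27 July and 5 August, Potri.014G103000 was higher by 3.23 log2 units (SE 0.37, edgeR adjusted p = 0.000196) and Potri.005G048700 by 6.20 (SE 0.45, edgeR adjusted p = 8.03e-06). Their levels on 9 to 15 September were 25.4 ± 6.97 CPM and 93.3 ± 30.5 CPM (SD, n = 4). In 5 of 18 alternatives Potri.014G103000 was called in the first days of September, and in 7 of 18 Potri.005G048700 was. Without 2 September the log2 fold change of Potri.005G048700 was 2.78, and without 5 September it was 5.07.

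**Figure D1:**
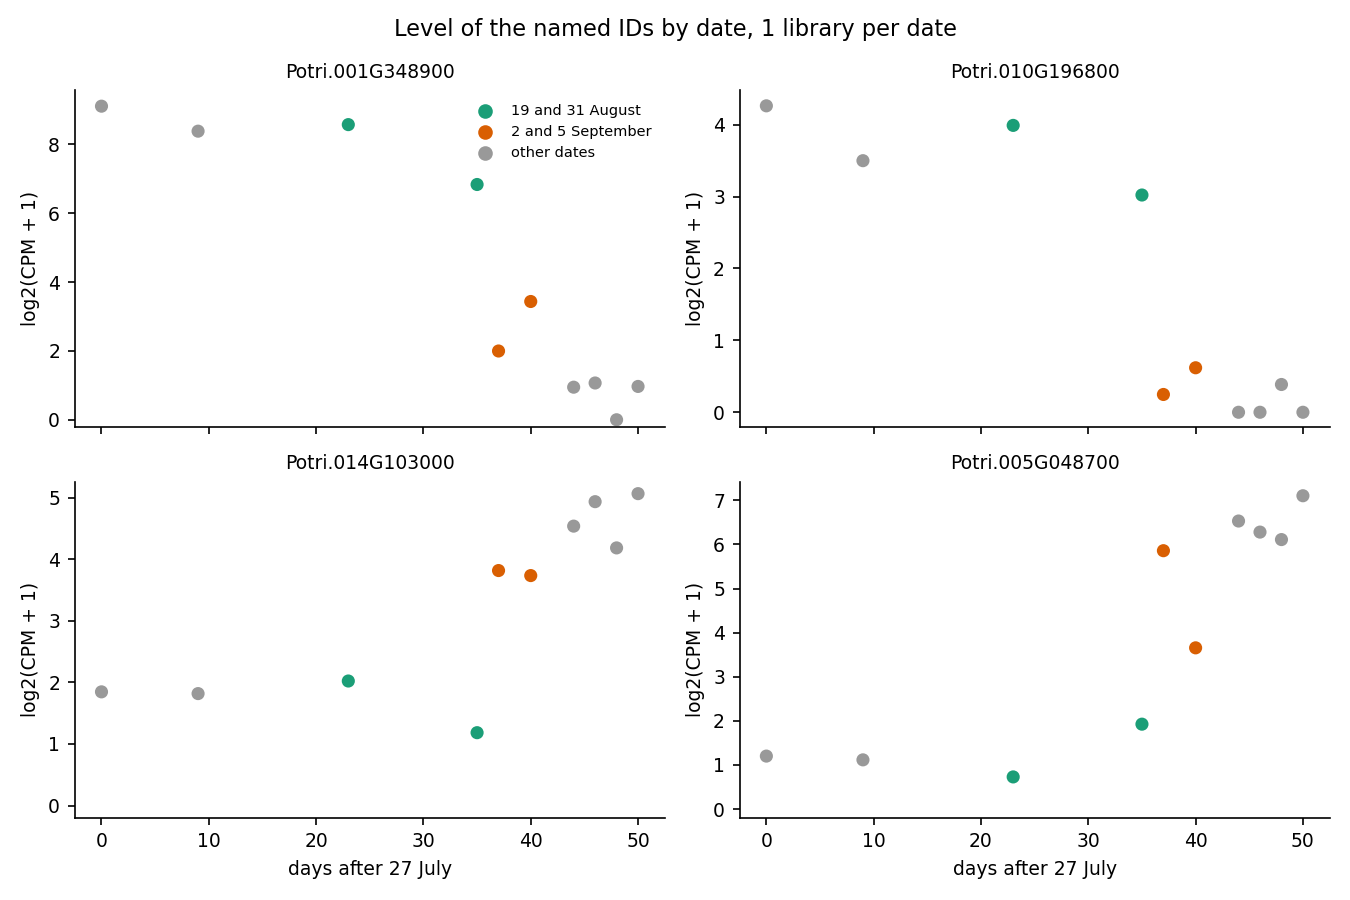
Level of the 4 named IDs on the 10 dates from 27 July to 15 September, as log2(CPM + 1) against days after 27 July, with 1 point per library and the dates of the comparison in colour. Potri.001G348900 and Potri.010G196800 are low on both September dates and Potri.014G103000 and Potri.005G048700 are high, and for Potri.001G348900 and Potri.005G048700 the point of 2 September lies nearer to the later dates than that of 5 September.

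Most IDs whose dates did not overlap had not passed the test. Both September libraries were above both August libraries for 3130 IDs (19.6% of those tested) and below them for 3152 (19.7%). Most of these gaps were small. With a mean difference over 2-fold and at least 50 counts in each library of the higher pair, 104 IDs were higher in September (0.65%) and 94 lower (0.588%). Enough counts for this were held by 4374 IDs in September and 3139 in August, of which the sets were 2.38% and 2.99%. Over 4-fold there were 6 in each direction (0.0375% each), and over 8-fold 1 in each (0.00625% each). The values nearest to the 2-fold limit were 1.003 log2 units inside and 0.99 outside among higher IDs, and -1.007 and -0.99 among lower ones.

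The 2-fold sets are described here by their levels in the same 4 libraries that chose them. Among the 104 higher IDs the median level was 7.77 and 10.2 CPM on 19 and 31 August, and 27.9 and 16.2 CPM on 2 and 5 September. The 94 lower IDs had median levels of 38.5, 30.6, 9.35 and 18.3 CPM on the same dates. In both sets 2 September was the more extreme September date, for 88 of the 104 higher and 89 of the 94 lower IDs. In August, 31 August was the date nearer to September for 78 of the higher and 69 of the lower IDs. The share over all tested IDs was not taken for either order, so neither can be called particular to these sets. Among the 10989 least abundant tested IDs, the median absolute difference from the August mean was 0.45 log2 units on 2 September and 0.31 on 5 September. More abundant IDs had the same order. The higher IDs came from 20 numbered prefixes of the ID system and the lower ones from 19, and 4 of the higher and 7 of the lower had another member within 3 places in the ID order.

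Most of these IDs were also called in libraries that had no part in choosing them. In the fit of 9 to 15 September against 27 July and 5 August, which shares no library with the 4 dates, edgeR's quasi-likelihood test called 841 of 13554 IDs higher (6.2%) and 857 lower (6.32%). Of the 104 higher IDs, 76 were called higher there and 0 lower, which is 73.1% of that set and 9.04% of the 841. Of the 94 lower IDs, 87 were called lower and 0 higher, which is 92.6% of that set and 10.2% of the 857. The median log2 fold change in these 6 libraries was 1.81 for the higher set and -1.91 for the lower set, beside -7.39e-05 for all tested IDs. The sign was the same for 103 of 104 and 93 of 94, where 50% of all tested IDs were on either side. On each later date the medians against the mean of 27 July and 5 August stayed on their side. They were 1.90, 1.67, 1.82 and 1.70 log2 units on 9, 11, 13 and 15 September for the higher set, and -1.61, -1.98, -1.79 and -2.35 for the lower set. Levels that were peculiar to 2 and 5 September were looked for under a limit on counts. High levels needed at least 50 counts in both September libraries, which 4374 IDs had. Low levels needed at least 50 counts in both August libraries, which 3139 IDs had. Within this limit both dates were above all 8 other libraries for 65 IDs (0.407% of all tested IDs) and below all of them for 13 (0.0813%). The gap was over 2-fold for 0 IDs in either direction. These are counts of levels, and no test was made of them.

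How far each date had moved was read from the 841 and 857 IDs of that independent fit, none of them chosen from the 4 dates. For each ID the distance from the mean of 27 July and 5 August to the mean of 9 to 15 September, in log2 CPM, was set to 100%, and each date was placed along it. The libraries that chose the IDs also set both ends, which can draw the other dates inward from either end. The size of that pull was not tested. Among the 841 IDs higher by mid September, the median position was 13.8% on 19 August (quartiles -6.37 and 36.3), 38.8% on 31 August (16.6 and 58.9), 84.8% on 2 September (66.2 and 103) and 62.9% on 5 September (43.7 and 83.5). Among the 857 lower IDs it was 6.10% (quartiles -8.34 and 22.5), 23.3% (7.87 and 39.5), 72.8% (53.5 and 96.8) and 49.6% (35.9 and 64.2). The 4 dates thus took the order 19 August, 31 August, 5 September, 2 September in both lists. The distance between 2 and 5 September was 21.9 percentage points for the higher and 23.2 for the lower IDs, and 35.5 and 9.91 points with library totals alone. Without 27 July, 19 August stood at 26.2% for the higher and 22.3% for the lower IDs, and without 5 August, 31 August stood at 39.3% for the lower IDs. With library totals alone, 19 August, 31 August and 5 September stood at 6.05%, 15.3% and 49.2% for the higher IDs, and at 11.7%, 38.6% and 54.5% for the lower IDs. No test was made of these positions, since each date has 1 library.

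**Figure D2:**
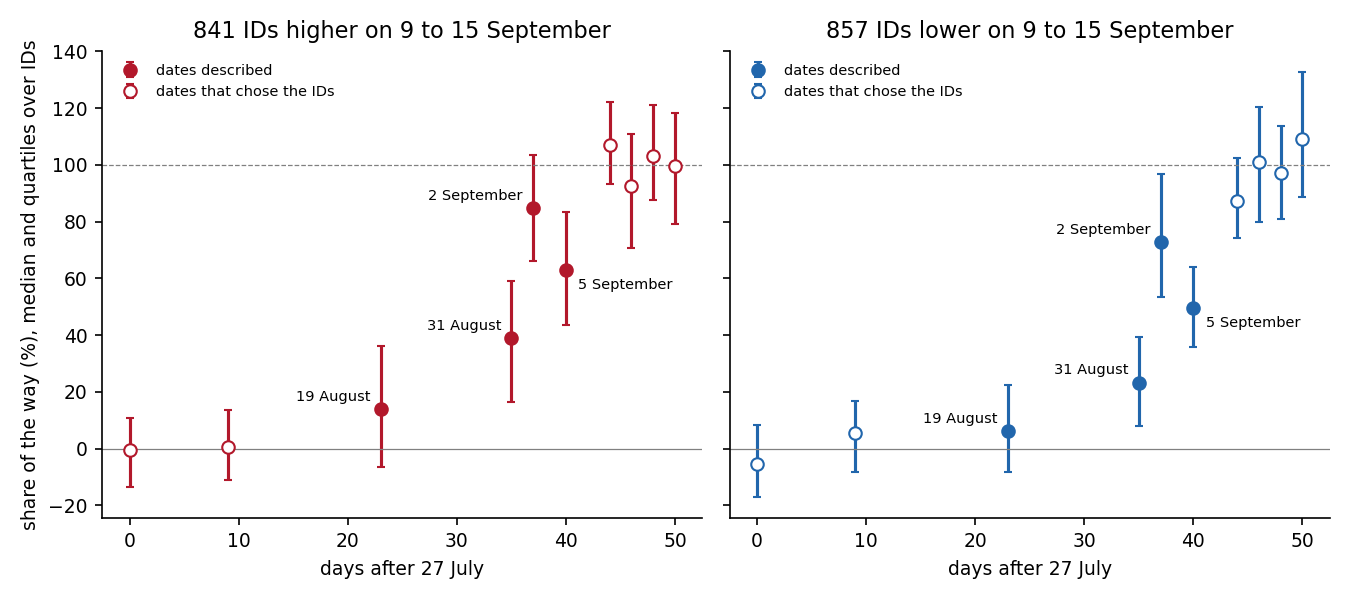
Position of each date between 27 July with 5 August (0%) and 9 to 15 September (100%), for the 841 IDs higher and the 857 lower in mid September, against days after 27 July, with points for medians and bars for quartiles over IDs. Filled points are the 4 dates described, at 13.8, 38.8, 84.8 and 62.9% for the higher IDs, and open points are the libraries that chose the IDs.

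The order of 2 and 5 September held for most single IDs as well. Of the 841 higher IDs, 589 (70.0%) were further along on 2 September than on 5 September, and of the 857 lower IDs 646 (75.4%) were. Past the 50% point were 86.6% of the higher IDs on 2 September, 65.4% on 5 September, 35.4% on 31 August and 12.7% on 19 August. Of the lower IDs, 78.4%, 48.7%, 16.0% and 5.95% had passed it on these dates. Beyond both August libraries lay 83.8% of the higher and 86.2% of the lower IDs on 2 September, and 73.6% and 82.5% on 5 September. Over all tested IDs, both September dates together lay above both August libraries for 19.6% and below them for 19.7%. Lying beyond August on both dates together is stricter than on a single date, so these shares are no background for the values above. The share over all tested IDs was not taken for each date alone. In all 10 alternatives run on this measure, 2 September was further along than 5 September for both lists. Whether the labels of these dates were exchanged was not tested.

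The position was also read by the size of an ID's full change. Among the higher IDs, the median position on 2 September was 82.5% for 42 IDs with a full change under 2-fold, 85.5% for 436 IDs of 2 to 4-fold, 85.2% for 212 IDs of 4 to 8-fold and 83.2% for 151 IDs of over 8-fold. On 5 September these classes stood at 65.1%, 64.4%, 64.9% and 53.5%, lowest for the largest changes. Among the lower IDs, 95 under 2-fold, 563 of 2 to 4-fold, 159 of 4 to 8-fold and 40 of over 8-fold stood at 79.4%, 73.5%, 69.8% and 74.2% on 2 September. On 5 September they stood at 45.9%, 48.5%, 52.2% and 56.4%, highest for the largest changes. In each class of both lists 2 September was ahead of 5 September, and no test was made between classes.

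Single dates were then compared directly, with no test, since each has 1 library. Counted were IDs over 2-fold apart with at least 50 counts in 1 library of the pair. Within August, 31 August differed from 19 August for 358 of 4516 IDs (7.93%). Within September, 5 September differed from 2 September for 540 of 5908 IDs (9.14%). From 31 August to 2 September, a gap of 2 days, 814 of 5378 IDs (15.1%) differed, 475 of them higher and 339 lower. From 31 August to 5 September only 165 of 5267 IDs (3.13%) differed, 118 higher and 47 lower, which was the smallest count of the 6 pairs. With library totals alone the split by direction was far from even, with 1684 higher and 102 lower from 31 August to 2 September and 278 and 19 from 31 August to 5 September. Against 19 August, 2 September differed for 1027 of 5640 IDs (18.2%) and 5 September for 414 of 5505 (7.52%). By these shares the library of 5 September stood closer to 31 August than 19 August did, and 2 September differed from each of the other 3 dates more than 31 August differed from 19 August.

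**Figure D3:**
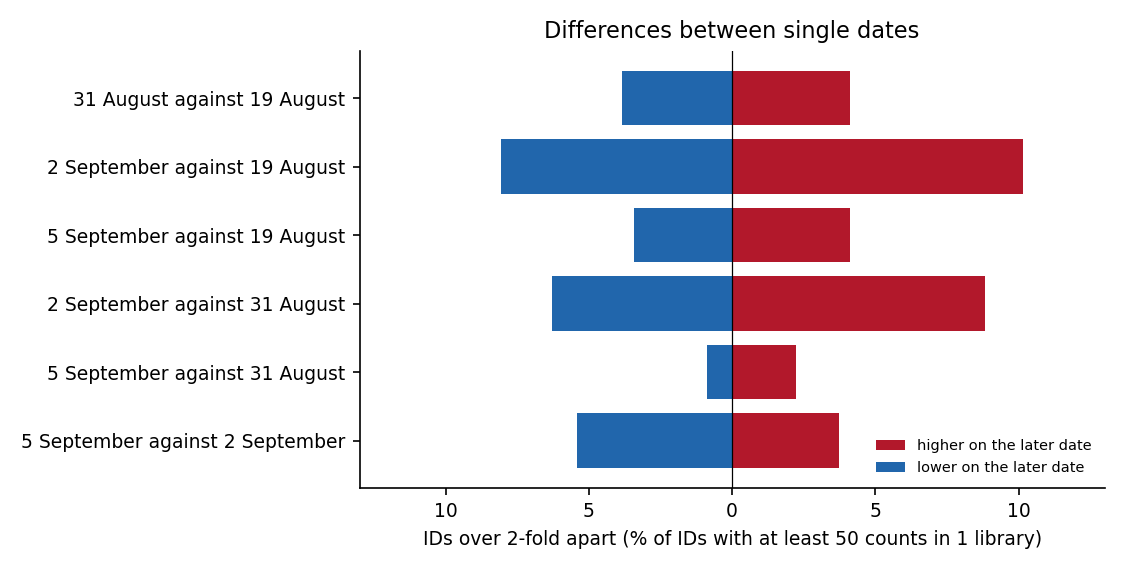
Share of IDs over 2-fold higher (right) or lower (left) on the later date, for the 6 pairs of the 4 dates, in percent of IDs with at least 50 counts in 1 library of the pair. The pair of 5 September and 31 August has the shortest bars (3.13% in all), and both pairs of 2 September with an August date have the longest (15.1 and 18.2%).

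Each September date was also set against the August pair in a fit without the other, which assumes that the lone library varies like the other groups. For 2 September, edgeR's quasi-likelihood test called 42 IDs higher (0.239%) and 23 lower (0.131%), with median log2 fold changes of 2.66 and -3.02. The call count for 5 September, from the fit without 2 September, is given above with the other call counts. Over all IDs tested in each fit, the median log2 fold change was -0.020 for 2 September (17556 IDs) and -0.016 for 5 September (17872 IDs). Both fits share the August libraries, and the difference between the dates was not tested. The 42 IDs had a median difference from August of 2.61 log2 units on 2 September, the date that chose them, and 0.86 on 5 September. For the 23 IDs it was -2.74 and -0.82.

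The most abundant IDs were lower on both September dates relative to the TMM reference. All 10 most abundant IDs were below both August libraries on both dates, as were 19.7% of all tested IDs. The log2 fold changes of these 10 ran from -0.74 to -0.20, and none of them was called (0.0125% of all tested IDs were). Their median difference from the August mean was -0.76 log2 units on 2 September and -0.33 on 5 September, while the median distance between the August dates was 0.06. Of the next 90 IDs, 52 (57.8%) were below and 14 (15.6%) above both August libraries, beside 19.7% and 19.6% of all tested IDs. The medians of these 90 were -0.74 and -0.36 on 2 and 5 September. Less abundant IDs were spread to both sides. The next 900 had medians of 0.09 and -0.01, the next 4000 of 0.11 and 0.02, and the remaining 10989 of -0.03 and 0.01.

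These directions depended on the scaling. With library totals alone, the median of all tested IDs moved to 0.56 log2 units on 2 September and 0.28 on 5 September. The 10 most abundant IDs then stood at -0.16 and -0.02, with 5 of them below and 1 above both August libraries, and the next 900 stood at 0.69 and 0.29. With this scaling 7746 of the 15989 tested IDs were above and 886 below both August libraries, and 13 IDs were called, 10 higher and 3 lower. In either scaling the 10 most abundant IDs lay below the median of all IDs, and 2 September lay further from August than 5 September did.

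**Figure D4:**
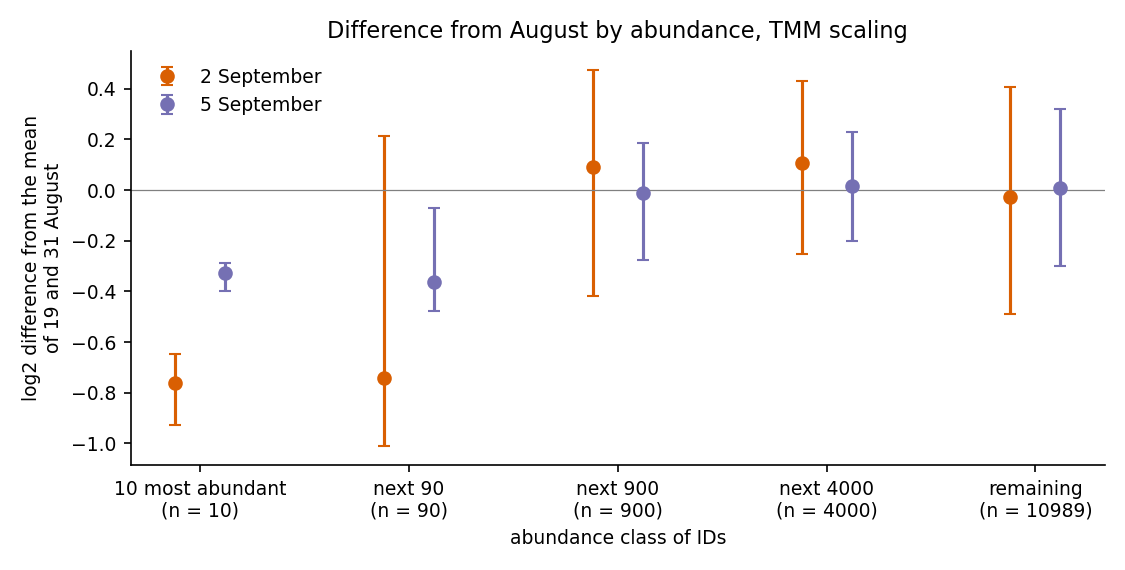
Difference of 2 and 5 September from the mean of 19 and 31 August in 5 classes of ID abundance, in log2 units after TMM scaling, with points for medians and bars for quartiles over IDs. The 10 most abundant IDs lie at -0.76 and -0.33 and the 3 least abundant classes near 0, and with library totals alone all classes shift upward.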

How the data were processed

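For 16 leaf libraries of Populus tremula and 41335 gene IDs, unnormalised read counts were deposited by the authors. The submitters' processing notes name STAR 2.4 and HTSeq, beside CASAVA 1.8.2, FastQC 1.0 and Trimmomatic 1.0, with no role stated. Of the genome build, annotation, strand setting and handling of reads with several matches nothing is stated in these sources. The 16 single library files held the same counts as the joint table, and every row named an ID.

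The main fit used edgeR 4.0.16 in R 4.3.3 (filterByExpr with minimum count 10 and total 15, TMM, glmQLFit, glmQLFTest, Benjamini-Hochberg at 0.05) on the 10 libraries from 27 July to 15 September in 4 groups, leaving 6 residual degrees of freedom. CPM values use the totals of tested IDs times the TMM factor, and log2 CPM a prior count of 2. SE is the fold change over the root of F. The independent fit used 6 libraries, with 4 residual degrees of freedom. DESeq2 1.42.0 and limma 3.58.1 served as alternatives. Only the main fit was run on simulated counts, and the outcome is not reported here. A count of 0 allows up to 3 counts, 0.536 to 3.29 CPM per library. Intervals and floors cover counting error only.

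No 2 of the 10 libraries agreed within sampling noise (lowest scatter 1.82 times binomial over 45 pairs). The libraries of 18 and 19 September did (0.618), and 0 IDs had more counts on 19 than on 18 September. They entered only the alternatives on all dates, with 18 September alone in one and both in the other.

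The dates, IDs and tests were chosen with earlier results of these data known. The planned gene lists could not be used, since no table pairs IDs with functions. For the same reason naming was limited to 2 IDs per direction. The rule took called IDs first and then the smallest p, among IDs with non-overlapping dates and at least 50 counts in each library of the higher pair. For lower IDs it gave Potri.001G348900 and Potri.001G015400, and the latter, which was not called, gave way to the other called ID, Potri.010G196800.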

Additional observations from a re-analysis of the deposited data

Results flagged for a closer look

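Of 9 measures taken over the 4 libraries of 9 to 15 September, 2 had a single library separated by a gap above the 95% critical value of Dixon's ratio. By chance about 1 in 20 would. Potri.001G348900 was at 0 CPM on 13 September, against 0.927 to 1.10 CPM on the other 3 dates. Potri.010G196800 was at 0.307 CPM on 13 September and at 0 on the other 3. Both gaps are of a few counts. For Potri.001G348900 the value of 9 September was above the floor of that library, 0.556 CPM. Its values of 11 and 15 September were under their floors of 3.29 and 2.87 CPM. The value of Potri.010G196800 on 13 September was under the floor of 0.921 CPM. With 3 values equal at 0, Dixon's ratio of this ID is 1 whatever the size of the gap, so the 1 in 20 does not apply to it.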

How the results depend on the processing

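With limma-voom 2 IDs were called as well, but Potri.010G196800 was not among them (limma-voom adjusted p = 0.311). The count of 2 called IDs was also 2 with relative log expression, the upper quartile, a filter of 50 counts over the 4 libraries and without the 10 most abundant IDs. It was 13 with library totals alone, 287 with no filter, 21 with DESeq2, 0 with the 4 libraries alone, 10 with all dates and 18 and 19 September as 1 library, 11 with all 16 libraries (where 18 and 19 September count as 2), 198 with 27 July, 5, 19 and 31 August as baseline, 1 with thinning to equal counts and, chosen after seeing the data, 0 without 11 and 15 September. Leaving out 1 of the 4 libraries gave 0 to 65. The causes of these moves were not tested.

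The 2-fold sets of 104 and 94 IDs became 486 and 24 with library totals alone and stayed within 1.5 times with the other scalings and with a prior count of 5, all chosen after seeing the data. Counts of IDs over 2-fold apart between single dates fell by construction with stricter limits. In the order 31 August against 19 August, 2 September against 19 August, 5 September against 19 August, 2 September against 31 August, 5 September against 31 August and 5 September against 2 September, they were 57, 263, 66, 207, 21 and 129 with at least 200 counts and 28, 189, 45, 145, 15 and 70 at 4-fold. With library totals alone, 2 September against 19 August gave 2003, 2 September against 31 August 1786 and 5 September against 31 August 297.

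The positions on 2 September ran from 80.0 to 87.8% for the higher and from 64.4 to 77.8% for the lower IDs over 10 alternatives. Except for the prior count and the mean over IDs, these choose their own IDs, 4410 higher and 298 lower with library totals alone. With library totals alone the higher IDs were at 6.05% on 19 August, 15.3% on 31 August and 49.2% on 5 September, and the lower IDs at 38.6% on 31 August. Leaving out 1 of the 6 libraries gave, for the higher IDs, 11.4 to 26.2% on 19 August, 32.2 to 49.4% on 31 August, 80.0 to 87.8% on 2 September and 57.8 to 68.2% on 5 September. For the lower IDs it gave 4.93 to 22.3%, 20.3 to 39.3%, 69.1 to 77.8% and 46.2 to 56.1%.

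No paired analysis was possible because the labels give no replicate numbers. Depth limits IDs of a few counts, and 11 and 15 September are the shallowest libraries. Alternatives for gene lists were not run, as no list could be formed.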
